A study of Arabidopsis thaliana with 12 samples.

Results

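The glutathione S-transferase (GST) family of Arabidopsis thaliana was followed in roots of 2 lines grown with or without phosphate. A fixed list of 53 locus identifiers was used, and 48 of them were among the 19802 genes of the expression table. They comprised 25 tau, 11 phi, 2 zeta, 3 theta, 3 lambda and 3 DHAR genes and the TCHQD gene, which the list holds although it belongs to none of these classes. GSTU3, GSTU15, GSTU21, GSTF3 and GSTF5 were listed but had no row in the table.

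Seedlings were wild-type Col-0 or CRR OE, a transgenic Col-0 line in which the CaMV 35S promoter drives CRR as a fusion to GFP in most cells, outside its normal domain. Both were kept for 7 days on agar with 1 mM phosphate (+Pi) or with no phosphate added (–Pi), and RNA from roots was sequenced. Each of the 4 groups had 3 libraries, and the question was how CRR, a plasma membrane CYBDOM protein with ferric reductase activity, alters the root transcriptome under phosphate deficiency. The expression table gives 1 value per gene and group, the authors' mean in log2 CPM (CPM is the read count of a gene relative to the scaled total of its library). No value per library was analysed here, so the spread between replicates cannot be given, and depth was not used. Every difference below is therefore a difference of group means on the log2 CPM scale, with no standard error and no test. A difference of 1 or more on that scale (2-fold) is called past 2-fold, which is a size and not a significance.

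The labels were checked against the transgene and cell type markers. The CRR gene (AT3G25290) had levels of 5.96 and 5.95 log2 CPM in Col-0 +Pi and –Pi, and of 12.70 and 12.72 in CRR OE. Markers of root hairs and epidermis (4 of 4 measured) summed to 110 and 200 CPM in Col-0 +Pi and –Pi and to 123 and 231 CPM in CRR OE. EXPA7, COBL9 and RHD6 made up this difference, while GL2 differed by -0.39 and 0.02. Those of the endodermis (3 of 3) summed to between 190 and 201 CPM, and those of the stele (3 of 3) to between 550 and 608 CPM. The root cap (2 of 2) summed to between 22.6 and 29.5 CPM, and the meristem (3 of 3) to between 39.0 and 46.9 CPM. Markers of green shoot tissue (4 of 5 measured) summed to between 41.9 and 63.7 CPM. The sum of the root hair markers thus differed with phosphate in both lines, and its part in the GST values was not tested. In bulk roots, fewer cells of a type and less RNA per cell cannot be told apart.

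GSTs bind the tripeptide glutathione and most members attach it to electrophilic compounds, which are then carried into the vacuole by ABCC transporters. Tau and phi enzymes are specific to plants and handle herbicides, oxidised lipids and defence metabolites, and many of their genes respond to hydrogen peroxide, salicylic acid or wounding. The zeta, theta, lambda and DHAR classes carry out other reactions with glutathione, such as isomerisation, reduction of peroxides and regeneration of ascorbate. Phosphate deficiency in roots is accompanied by iron deposition and reactive oxygen species in the apoplast.

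Across the family, 7 members were past 2-fold in at least 1 comparison: GSTU4, GSTU12, GSTU20, GSTF2, GSTF6, GSTF7 and GSTF14. This was 14.6% of the members, where 7.47% of all genes were past 2-fold in any of the 5 comparisons. The 300 bases before the annotated start of GSTU12, GSTU4, GSTF7 and GSTF14 held a W-box (TTGACC or TTGACT), the core bound by WRKY factors, and these windows are printed to show where the element lies. They are from RefSeq TAIR10.1, read 5′ to 3′ on the strand of the gene, with the matches on either strand in capitals. A W-box on the other strand reads GGTCAA or AGTCAA here.
GSTU12, chr1:26335631-26335930, minus strand: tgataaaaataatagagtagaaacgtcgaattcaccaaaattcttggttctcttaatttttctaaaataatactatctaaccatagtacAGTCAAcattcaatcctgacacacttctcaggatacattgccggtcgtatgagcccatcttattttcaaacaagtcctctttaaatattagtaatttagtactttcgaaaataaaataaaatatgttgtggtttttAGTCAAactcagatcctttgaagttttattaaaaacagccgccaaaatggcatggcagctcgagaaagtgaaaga
GSTU4, chr2:12627892-12628191, minus strand: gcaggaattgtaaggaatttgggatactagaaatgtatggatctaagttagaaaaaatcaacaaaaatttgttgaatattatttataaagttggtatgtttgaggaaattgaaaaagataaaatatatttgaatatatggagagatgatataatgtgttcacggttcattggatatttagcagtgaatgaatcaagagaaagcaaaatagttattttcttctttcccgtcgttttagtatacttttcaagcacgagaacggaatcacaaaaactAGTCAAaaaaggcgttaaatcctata
GSTF7, chr1:659981-660280, minus strand: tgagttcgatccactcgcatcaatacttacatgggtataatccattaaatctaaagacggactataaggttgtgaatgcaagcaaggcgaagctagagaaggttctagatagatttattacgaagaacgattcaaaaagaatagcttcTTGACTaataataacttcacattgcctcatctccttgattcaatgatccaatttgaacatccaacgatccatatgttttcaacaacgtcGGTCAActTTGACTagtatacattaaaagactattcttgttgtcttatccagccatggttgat
GSTF14, chr1:18458226-18458525, plus strand: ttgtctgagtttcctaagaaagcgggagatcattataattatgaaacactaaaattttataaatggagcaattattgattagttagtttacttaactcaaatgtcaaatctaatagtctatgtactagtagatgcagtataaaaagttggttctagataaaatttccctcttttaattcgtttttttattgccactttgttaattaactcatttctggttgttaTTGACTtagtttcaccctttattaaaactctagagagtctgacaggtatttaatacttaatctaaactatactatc

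In GSTU12 the TTGACT matches lay 211 and 75 bases before the start. GSTU4 had a TTGACT at 26 bases and GSTF14 at 76 bases. The GSTF7 window held TTGACT at 152 and 55 bases and TTGACC at 63 bases. Windows of GSTU20 and GSTF2 held none of the motifs searched, and that of GSTF2 overlaps the neighbouring gene AT4G02530.

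Over the whole family, 23 of 48 members (47.9%) had at least 1 W-box in this window, beside 32.3% of the 19782 genes with a window of the same length. TGACG, the core bound by TGA factors of the bZIP family, was present in 18 members (37.5%) beside 22.0% of all genes. TTGACC was found in 12 members (25.0%) beside 14.1% of genes, and TTGACT in 16 (33.3%) beside 21.7%, with some windows holding both. CACGTG, the G-box core, was found in 7 members (14.6%) beside 7.84% of genes. GNATATNC, the site of the phosphate starvation regulator PHR1, was found in 3 members (6.25%) beside 6.6% of genes. Both strands were searched, the PHR1 and G-box letters read the same on both, and TGACG can share at most 1 end letter with a W-box. A match is a string of letters and not a binding site, and its absence covers this window only.

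GST messages were abundant in roots. The 48 members summed to 6613 CPM in Col-0 +Pi, 8036 in Col-0 –Pi, 6722 in CRR OE +Pi and 7388 in CRR OE –Pi. The sum in –Pi was 1.22 times that in +Pi for Col-0 and 1.1 times for CRR OE. Phi genes contributed 3221, 4130, 3309 and 3820 CPM in the same order of groups, and tau genes 2428, 2886, 2492 and 2697 CPM. The DHAR sum went from 629.5 to 680.6 CPM for Col-0 and from 581.3 to 541.3 CPM for CRR OE. In Col-0 both DHAR1 (488.5 to 517.6 CPM) and DHAR2 (117.4 to 143.5 CPM) were higher in –Pi. In CRR OE the sum mostly followed DHAR1 (435.4 to 399.4 CPM). DHAR1 was the only one of the 3 whose difference had opposite signs in the lines.

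A few genes made up most of this. GSTF9 alone held 20.9% of the summed CPM of the family, GSTF9 and GSTU19 together 36.2%, and the 5 most abundant members, with GSTF8, GSTF10 and DHAR1, 67.0%. Since CPM is not scaled for length, members were ranked by CPM per kilobase of coding sequence, taken from the mean log2 CPM of the 4 groups. GSTF9 led with 2311 CPM per kilobase, followed by GSTU19 with 1661, GSTF10 with 1309 and GSTF8 with 1133. DHAR1 came next with 713.3, and GSTU8 and GSTU25 were nearly level at 321.6 and 321.3. GSTU20, GSTU24 and GSTZ1 lay at 231.6, 230.8 and 230.5 CPM per kilobase. The lowest members were GSTU11 and GSTU12, at 1.01 and 0.836 CPM per kilobase. With no spread between libraries, the order of neighbours at such close levels cannot be told.

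**Figure D1:**
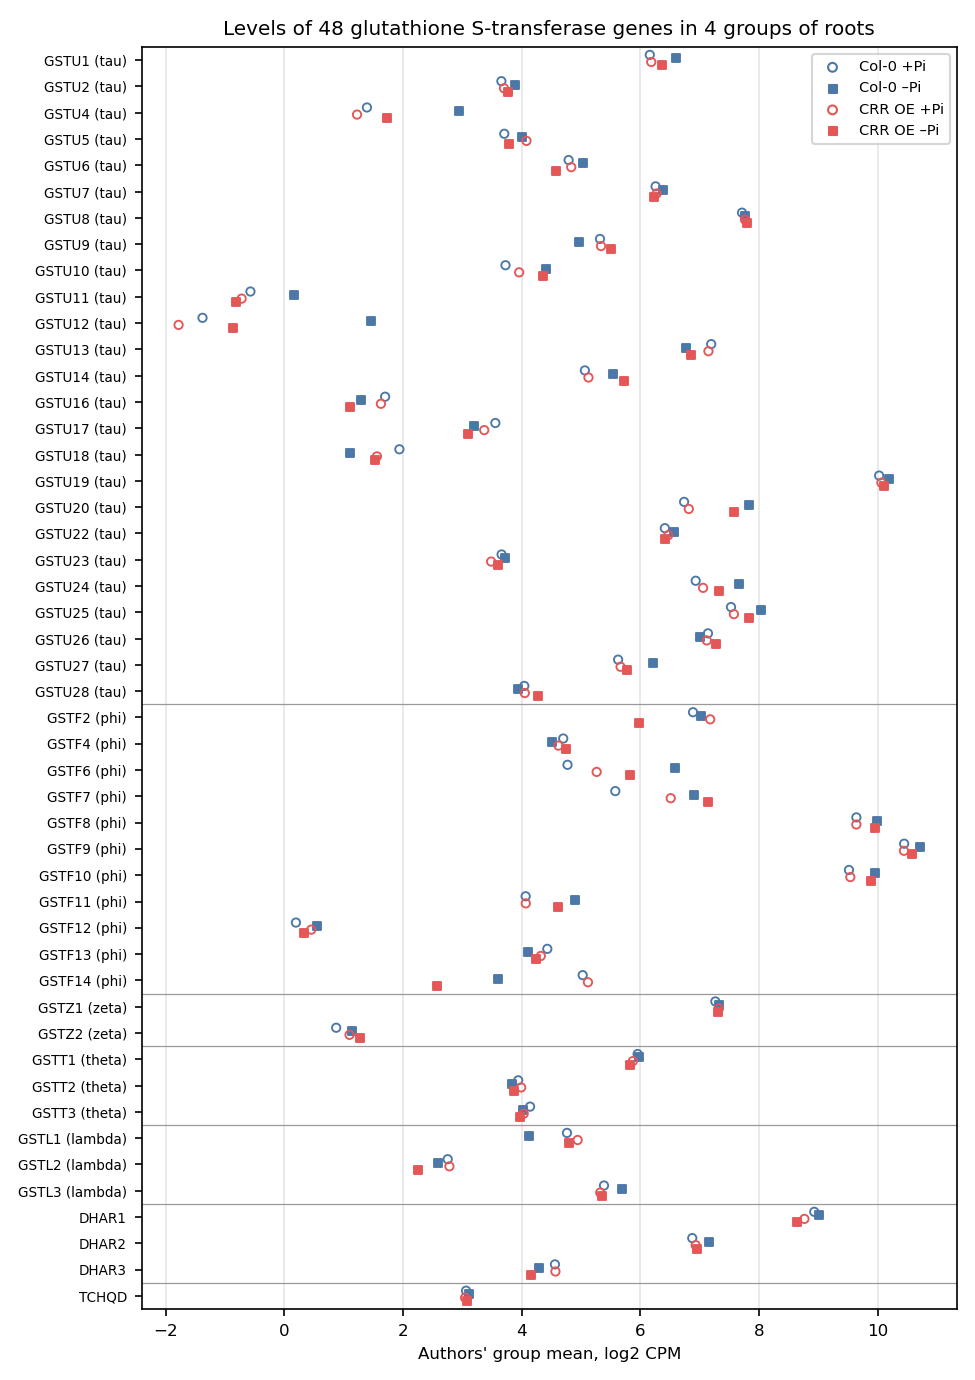
Authors' mean level in log2 CPM (x axis) of the 48 measured members (rows, by class), with open circles for +Pi and filled squares for –Pi, blue for Col-0 and red for CRR OE. The levels span from -1.79 log2 CPM (GSTU12 in CRR OE +Pi) to 10.71 (GSTF9 in Col-0 –Pi), and the 4 symbols of the most abundant members lie close together.

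The first comparison asked which members differed between –Pi and +Pi in wild-type roots. In Col-0, 5 of 48 members (10.4%) were past 2-fold higher in –Pi, where 3.96% of all genes were, and 1 member (2.08%) was past 2-fold lower, beside 2.0% of all genes. The median difference of the members was 0.16 on the log2 scale, against -0.02 over all genes, and 33 members were above 0 and 15 below (68.8% above 0, beside 46.0% of all genes). By class, the median was 0.23 for tau and 0.35 for phi, and lay between -0.16 and 0.17 for the zeta, theta, lambda and DHAR classes.

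GSTU12 (AT1G69920), a tau enzyme at the bottom of the range, had the largest difference as deposited. Its levels were -1.38 log2 CPM in Col-0 +Pi, 1.46 in Col-0 –Pi, -1.79 in CRR OE +Pi and -0.87 in CRR OE –Pi. The Col-0 –Pi group stood above the other 3, with a difference of 2.84 from Col-0 +Pi. In CPM these levels were 0.384, 2.745, 0.290 and 0.548, which is close to the authors' detection filter of 1 CPM, and genes at so low a level varied widely. The mean reached 1 CPM only in Col-0 –Pi, so GSTU12 may have passed the filter only through the group where it is high. Its direction in every comparison with Col-0 –Pi may thus be set by the filter, and it lends no support to those counts. Among the 800 genes with a mean under 0 log2 CPM, the central 95% of –Pi differences in Col-0 ran from -2.25 to 4.80. With 1 CPM added before the log, the GSTU12 difference was 1.44, under the 1.77 of GSTF6, so the order of the members turned.

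GSTF6 (AT1G02930), a phi enzyme that takes part in camalexin synthesis and is induced by dehydration, had levels of 4.77, 6.58, 5.26 and 5.83 log2 CPM in Col-0 +Pi, Col-0 –Pi, CRR OE +Pi and CRR OE –Pi. Both –Pi groups were above both +Pi groups, and the Col-0 difference was 1.81. Its neighbour GSTF7 (AT1G02920), a salicylic acid-responsive phi gene, had levels of 5.58, 6.91, 6.51 and 7.15 log2 CPM, with a Col-0 difference of 1.33. The Col-0 +Pi group was the lowest of the 4 for both genes. Their coding sequences are 94.3% identical and 1107 bases separate the genes, so reads could be placed on either copy or dropped, and the split between them is uncertain.

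GSTU4 (AT2G29460) had levels of 1.39, 2.94, 1.22 and 1.73 log2 CPM, and the Col-0 –Pi group again stood above the rest, with a difference of 1.55. GSTU20 (AT1G78370), also known as FIP1 for its binding to the jasmonate-conjugating enzyme JAR1, was abundant, with levels of 6.74, 7.84, 6.82 and 7.58 log2 CPM. Its difference was 1.1 in Col-0 against 0.76 in CRR OE, and the –Pi groups were above the +Pi groups in both lines. For the 7253 genes with a mean over 5 log2 CPM, the central 95% of Col-0 –Pi differences ran from -0.57 to 0.77.

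GSTF14 (AT1G49860), a divergent phi gene, was the only member past 2-fold lower in Col-0 –Pi. Its levels were 5.03, 3.6, 5.12 and 2.58 log2 CPM, or 32.6, 12.2, 34.7 and 5.97 CPM. Both +Pi groups were high and nearly equal, and both –Pi groups were low. The difference between –Pi and +Pi was -1.42 in Col-0. Among the members that were never past 2-fold, the Col-0 differences ran from -0.83 (GSTU18) to 0.83 (GSTF11).

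**Figure D2:**
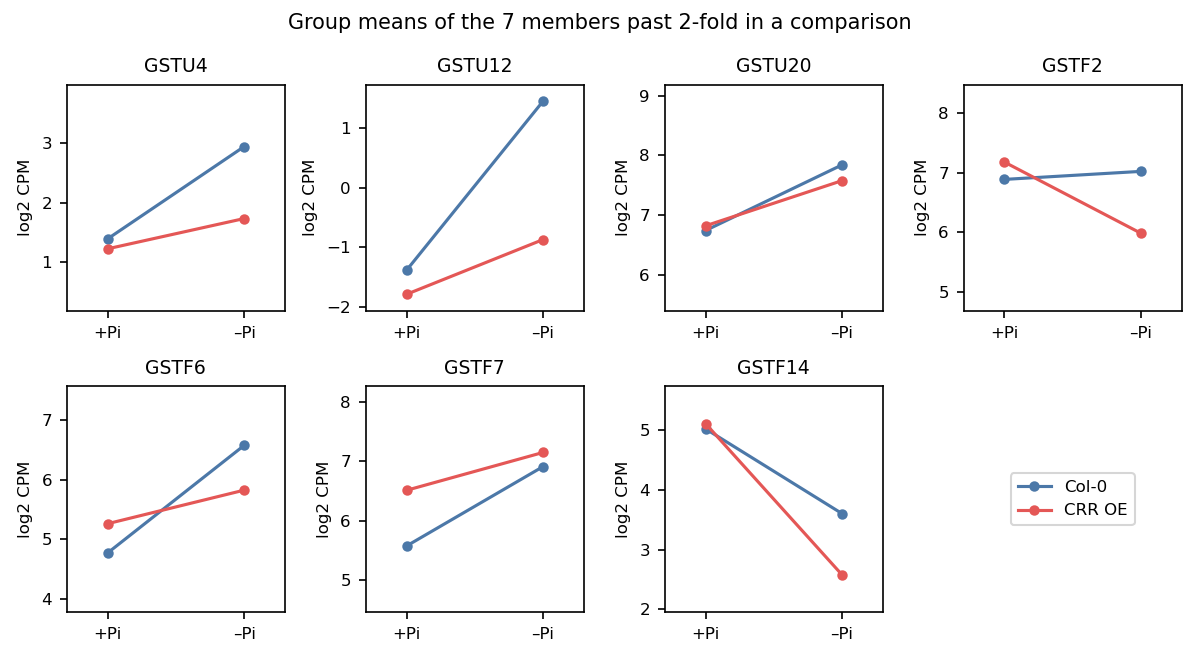
Authors' group means in log2 CPM (y axis, with the same span in every panel) of the 7 members past 2-fold, in +Pi and –Pi (x axis), blue for Col-0 and red for CRR OE; lines join the groups of a line and there are no error bars because only means were used. GSTU12, GSTU4, GSTF6 and GSTF7 differ more with phosphate in Col-0, GSTF14 and GSTF2 more in CRR OE.

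The same comparison was then made in CRR OE. In these roots 0 of 48 members were past 2-fold higher in –Pi, where 3.18% of all genes were, and 2 members (4.17%) were past 2-fold lower, beside 0.853% of all genes. The median difference was 0.04 for the members and -0.01 over all genes, with 27 members above 0 and 21 below (56.2% above 0, beside 46.1% of all genes). The highest difference was that of GSTU12, 0.92. GSTU4, GSTF6 and GSTF7 differed by 0.51, 0.56 and 0.64 between –Pi and +Pi. The members that were never past 2-fold ran from -0.53 (GSTU16) to 0.60 (GSTU14).

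GSTF14 was again the lowest, with a difference of -2.54 in CRR OE, from 34.7 to 5.97 CPM. GSTF2 (AT4G02520), a phi protein that binds camalexin and other indole compounds, had levels of 6.89 and 7.02 log2 CPM in Col-0 +Pi and –Pi, and of 7.18 and 5.98 in CRR OE. Only the CRR OE –Pi group was low, with 63.3 CPM where the other 3 groups had 118 to 145 CPM. The –Pi difference of GSTF2 was 0.13 for Col-0 and -1.19 for CRR OE.

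The GSTF2 gene shares 1442 of its 1691 bases with TOC159 (AT4G02510), a chloroplast import receptor on the opposite strand, and whether counting used the strand is not given in the sources used here. TOC159 had levels of 7.12, 6.77, 7.18 and 6.96 log2 CPM, so its –Pi difference was -0.35 for Col-0 and -0.21 for CRR OE. Without strand, reads of the pair cannot be told apart, and the values of GSTF2 are uncertain for that reason. GSTF2 is also 94.5% identical in coding sequence to GSTF3, which had no row in the table.

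The lines were next compared within each phosphate condition. In +Pi, 0 members were past 2-fold higher in CRR OE, beside 0.126% of all genes, and 0 were past 2-fold lower, beside 0.162%. The member differences ran from -0.40 (GSTU12) to 0.93 (GSTF7), with a median of 0.02. GSTF7, with 47.8 CPM for Col-0 and 91.3 CPM for CRR OE, lay just short of 2-fold, and GSTF6 was next with a difference of 0.49.

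In –Pi, 4 of 48 members (8.33%) were past 2-fold lower in CRR OE than in Col-0, where 0.747% of all genes were, and 0 were past 2-fold higher, beside 0.702% of all genes. These 4 were GSTU12 with a difference of -2.32, GSTU4 with -1.21, GSTF2 with -1.04 and GSTF14 with -1.03. GSTU12 reached 1 CPM only in Col-0 –Pi and lends no support to this count. Among the 46 members with a mean of 0 log2 CPM or more, which leaves GSTU12 out, 3 were past 2-fold lower, beside 0.389% of such genes. GSTF2 and GSTF14 lay just past the 2-fold line and GSTU11, the tau neighbour of GSTU12, fell just short of it at -0.97. GSTF6 differed by -0.75, GSTU20 by -0.26 and GSTF7 by 0.24. Between the lines in –Pi, the central 95% of all genes ran from -0.29 to 0.38 at mean levels over 5 log2 CPM, where GSTF2 lies, and from -0.45 to 0.52 at 2 to 5, where GSTF14 lies. It widened to between -0.87 and 0.84 at 0 to 2, the range of GSTU4, and to between -1.86 and 1.62 under 0, the range of GSTU12 and GSTU11. GSTU11 had 0.672, 1.12, 0.606 and 0.570 CPM in Col-0 +Pi, Col-0 –Pi, CRR OE +Pi and CRR OE –Pi. Its -0.97 lay inside the last of these ranges, and like GSTU12 it reached 1 CPM only in Col-0 –Pi. The median over the members was -0.13, with 13 members above 0 and 35 below (27.1% above), against a median of 0.00 and 50.1% above 0 over all genes. All 3 DHAR genes were below 0, as were 18 of 25 tau and 8 of 11 phi genes. At the other end, GSTL1 had a difference of 0.67 and GSTU9 of 0.53. Markers of the root cap and meristem were also lower in CRR OE in this comparison, with differences of -0.38 (SMB), -0.28 (BRN1), -0.19 (CYCB1;1), -0.31 (PLT1) and -0.76 (WOX5). In +Pi these markers differed by -0.18, -0.11, -0.12, 0.00 and -0.14 in the same order. Each of the –Pi differences lay inside the central 95% above for genes at its level. The part of these markers in the GST values was not tested.

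**Figure D3:**
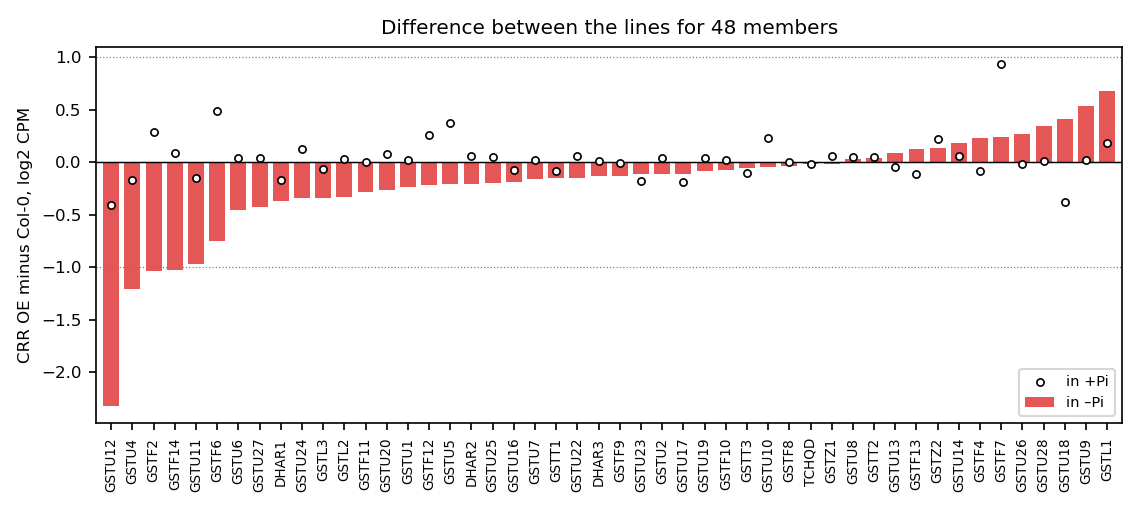
Difference of group means, CRR OE minus Col-0 in log2 CPM (y axis), for each of the 48 members (x axis, ordered by the difference in –Pi), with red bars for –Pi, open circles for +Pi and dotted lines at 2-fold. The bars run from -2.32 (GSTU12) to 0.67 (GSTL1) and 35 of 48 are below 0, while the circles lie between -0.40 and 0.93.

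Finally, the difference between the –Pi responses, CRR OE minus Col-0, was taken, which is the interaction of genotype and phosphate on group means. It was past 2-fold lower for 5 of 48 members (10.4%), where 1.06% of all genes were, and past 2-fold higher for 0, beside 1.09% of all genes. The 5 were GSTU12 with -1.92, GSTF2 with -1.33, GSTF6 with -1.24, GSTF14 with -1.12 and GSTU4 with -1.04. Without the genes of mean under 0 log2 CPM, GSTU12 among them, 4 of 46 members were past 2-fold lower, beside 0.647% of genes. The value was -0.70 for GSTF7 and -0.34 for GSTU20. The highest value, 0.79, was that of GSTU18, and 36 members were below 0 and 12 above (25.0% above 0, beside 50.9% of all genes). The median was -0.15 for the members and 0.00 over all genes. This measure shares its groups with the 4 comparisons before it and adds no independent values to them.

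Of the 33 members that were above 0 in Col-0, 31 (93.9%) had a lower difference in CRR OE, as did 73.2% of all genes above 0 in Col-0. Choosing genes by a difference above 0 in Col-0 by itself favours a lower one in CRR OE. The count is therefore no test of a weaker response. The difference was smaller in absolute size in CRR OE for 35 of 48 members (72.9%), as it was for 59.3% of all genes. GSTF14 and GSTF2 were exceptions among the members past 2-fold, with larger absolute differences in CRR OE. Across the 48 members, the –Pi differences of the lines had a Pearson correlation of 0.69 and a Spearman correlation of 0.69, and 34 (70.8%) had the same sign in both, beside 69.6% of all genes. Without GSTF14 the correlations over 47 members were 0.67 and 0.67. Genes are not independent replicates, and over all genes the correlations were 0.85 and 0.58.

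**Figure D4:**
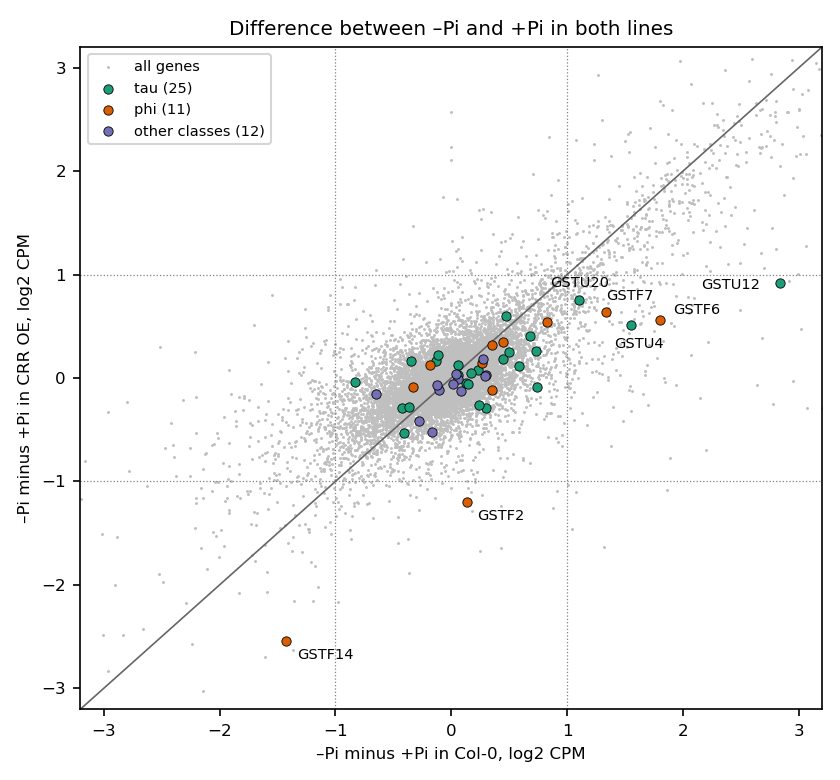
Difference of group means between –Pi and +Pi in log2 CPM, in Col-0 (x axis) and in CRR OE (y axis), for the members by class (coloured points) over all genes (grey, 147 of them beyond the axes); dotted lines mark 2-fold and the solid line equal differences. GSTU12, GSTF6, GSTU4 and GSTF7 lie below the line of equal differences on the right, GSTF2 at 0.13 and -1.19, and GSTF14 at -1.42 and -2.54.

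None of the 3 most abundant members per kilobase of the tau and phi classes was past 2-fold in any comparison. GSTF9 (AT2G30860) had levels of 10.45 and 10.71 log2 CPM in Col-0 +Pi and –Pi and of 10.44 and 10.59 in CRR OE. GSTU19 (AT1G78380), a major tau enzyme, had 10.03, 10.19, 10.06 and 10.11 log2 CPM. GSTF8 (AT2G47730), an early stress-response marker, and GSTF10 (AT2G30870), a dehydration-responsive gene, had –Pi differences of 0.35 and 0.45 for Col-0, and of 0.31 and 0.35 for CRR OE. GSTU8 (AT3G09270) differed by 0.06 and 0.03. GSTU25 (AT1G17180), an enzyme that conjugates the explosive TNT, differed by 0.50 for Col-0 and 0.25 for CRR OE. The differences of these 6 genes between the lines in –Pi ran from -0.20 (GSTU25) to 0.03 (GSTU8).

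Among the remaining classes, the largest differences were those of lambda and DHAR genes. Zeta enzymes isomerise maleylacetoacetate in tyrosine breakdown, and GSTZ1 (AT2G02390) had levels of 7.27, 7.33, 7.32 and 7.31 log2 CPM in the 4 groups, a span of less than 0.1. GSTZ2 (AT2G02380) had 0.87, 1.15, 1.1 and 1.28 log2 CPM, and per kilobase it lay at 3.19 CPM beside 230.5 for GSTZ1. Theta enzymes act on organic peroxides. GSTT1 (AT5G41210) had 5.95, 5.97, 5.87 and 5.82 log2 CPM, and GSTT2 (AT5G41240) and GSTT3 (AT5G41220), 91.0% identical in coding sequence, had –Pi differences of -0.11 and -0.12 for Col-0 and of -0.12 and -0.06 for CRR OE. TCHQD (AT1G77290), related to a bacterial dehalogenase, had 3.06, 3.10, 3.04 and 3.08 log2 CPM.

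Lambda enzymes reduce glutathione adducts, including those of quercetin. GSTL1 (AT5G02780) had levels of 4.76, 4.12, 4.94 and 4.79 log2 CPM, so that only Col-0 –Pi was low, with a –Pi difference of -0.65 for Col-0 and -0.15 for CRR OE. GSTL3 (AT5G02790), separated from GSTL1 by 3 bases, had 5.39, 5.69, 5.32 and 5.35 log2 CPM, and only Col-0 –Pi was high. GSTL2 (AT3G55040) had 2.75, 2.59, 2.78 and 2.26 log2 CPM, lowest in CRR OE –Pi. None of these differences was past 2-fold.

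DHARs regenerate ascorbate from dehydroascorbate with glutathione as the electron donor. DHAR1 (AT1G19570) had levels of 8.93, 9.02, 8.77 and 8.64 log2 CPM, with a difference between the lines of -0.17 in +Pi and -0.37 in –Pi. DHAR2 (AT1G75270) had 6.88, 7.16, 6.93 and 6.95 log2 CPM, and only Col-0 –Pi stood out. The plastid DHAR3 (AT5G16710) had 4.56, 4.28, 4.57 and 4.15 log2 CPM, lower in –Pi than in +Pi in both lines.

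Many members lie next to each other in the genome. In the coordinates of RefSeq TAIR10.1, 36 of the 53 listed genes fell into 12 arrays with gaps of at most 20000 bases, and neighbours could be alike or not. Of 17 neighbouring pairs with both genes measured, 13 had –Pi differences of the same sign for Col-0 and 11 for CRR OE. The genes of 11 pairs lay within 0.5 of each other for Col-0, and those of 13 pairs for CRR OE. Since 33 members were above 0 in Col-0 and 27 in CRR OE, members that are not neighbours also often share a sign. Pairs of such members were not counted, so these counts do not show that neighbours are alike. GSTF9 and GSTF10 were a pair within 0.5, with 0.27 and 0.45 in Col-0, as were GSTU24 and GSTU25 with 0.73 and 0.50. On chromosome 1 from 658578 to 666471, GSTF7 and GSTF6 were past 2-fold higher in Col-0 –Pi, while GSTF4 in the same array had a difference of -0.19. On chromosome 2 from 12617936 to 12632538, GSTU4 differed by 1.55 and GSTU5, 687 bases away, by 0.30. On chromosome 1 from 29467412 to 29488007, GSTU20 differed by 1.1 and GSTU19, 997 bases away, by 0.17. GSTU13 and GSTU14, with 82.0% identical coding sequences, had –Pi differences of opposite sign in both lines, -0.42 and 0.48 for Col-0 and -0.29 and 0.60 for CRR OE. The neighbours GSTU12 and GSTU11 had –Pi differences of 2.84 and 0.74 in Col-0, both at a mean under 0 log2 CPM, where genes varied widely. GSTU17 and GSTU18 share 71 bases on the same strand, and GSTF11 lies wholly within NAC045 on the opposite strand, so their values are also uncertain. Other members overlap annotated genes that had no measured level. These overlaps covered 1014 of 1353 bases of GSTF4, 849 of 1124 of GSTU2, 636 of 964 of GSTU7 and 516 of 3160 of GSTF8. Smaller overlaps were present for further members, and the part of any overlap in the values was not tested.

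Genes that supply or use glutathione outside the family were read from fixed lists. Over all genes, 7.47% were past 2-fold in any of the 5 comparisons, and this share stands beside every list count below. With so few genes per list, these counts cannot be told from that share. Of 10 genes of glutathione synthesis, reduction and turnover, 1 was past 2-fold: GGT2 (AT4G39650), a gamma-glutamyl transferase, with levels of -1.07, 0.16, -0.93 and -0.58 log2 CPM and –Pi differences of 1.23 for Col-0 and 0.35 for CRR OE. Of 7 measured glutathione peroxidase-like genes, GPX4 (AT2G48150) was past 2-fold higher in –Pi in both lines, by 1.23 and 1.21. GGT2 and GPX4 lay at low levels, where genes varied widely. At a mean under 0 log2 CPM, the range of GGT2, the central –Pi differences of all genes in Col-0 ran from -2.25 to 4.80. At 0 to 2, the range of GPX4, they ran from -1.21 to 2.19 in Col-0 and from -0.90 to 1.96 in CRR OE. The past 2-fold differences of both genes lay inside these limits, and GGT2 reached 0 log2 CPM only in Col-0 –Pi, where it was highest. None of 4 vacuolar ABCC transporter genes, 10 measured genes of ascorbate recycling outside the DHARs, or 7 genes for TGA factors and their partner SCL14 was past 2-fold in any comparison. Their median –Pi differences in Col-0 were 0.18, -0.06 and 0.05, against -0.02 over all genes.

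Of 7 genes of the xenobiotic and oxylipin response, the cytochrome P450 gene CYP81D8 (AT4G37370) was past 2-fold higher in –Pi in CRR OE, with a difference of 1.23 there and 0.43 in Col-0. Of 5 measured camalexin synthesis genes outside the family, CYP71A12 (AT2G30750), with levels of 3.42, 4.48, 4.21 and 5.73 log2 CPM, was past 2-fold higher in –Pi in both lines, by 1.07 for Col-0 and 1.52 for CRR OE, and its –Pi level in CRR OE exceeded that of Col-0 by 1.25. In the same comparison of the lines in –Pi, GSTF6, the family member of this pathway, had a difference of -0.75, and the other listed genes had 0.09 (CYP79B2), 0.46 (CYP79B3), -0.25 (GGP1) and -0.49 (PAD3). Of 7 anthocyanin genes 3 were measured and none was past 2-fold, and GSTF12 (AT5G17220), the anthocyanin carrier TT19, was near the detection limit in all 4 groups, at 0.19 to 0.54 log2 CPM.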

How the data were processed

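RNA-seq of roots of Col-0 and CRR OE in +Pi and –Pi was used, with 3 libraries in each of 4 groups. Read trimming by the authors was done with Cutadapt 1.8, alignment to TAIR10 with STAR 2.5.3a and counting per gene with HTSeq 0.9.1. The authors dropped genes that reached 1 CPM in no library, scaled the rest by TMM and derived log2 CPM in edgeR 3.24.3. RSEM 1.2.31 and R 3.5.3 are listed too in the submitters' processing notes. For RNA extraction the labels name a column kit and the methods Trizol. The deposited table used here has 19802 genes and, for each group, a single authors' mean in log2 CPM, so depth and replicate spread were not analysed here. The 5 deposited comparison tables hold the authors' log2 fold changes, fold changes, p-values, adjusted p-values and F scores and were not used.

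Differences of group means were taken in Python 3.11.15 with pandas 2.3.3 and NumPy 2.4.6, and the counting was tested on simulated data. The members and lists were chosen with earlier results of these data known. Members were named if past 2-fold in any comparison with at least 1 group at 0 log2 CPM or more, if among the 3 highest per kilobase of the tau or phi class, or if in another class; list genes were named if past 2-fold. Other named genes were chosen after their values were seen. RefSeq TAIR10.1 matched 19783 genes by locus tag, and 19781 had identical starts and ends. Upstream sequences, motifs, coding lengths and identities (global alignment of the longest coding sequence of each gene, Biopython 1.88) came from it, and the upstream window of 1 member is not reported here. Figures were drawn with matplotlib 3.10.9. Alternatives were 1 CPM added before the log, a level filter, centring on the median of all genes, and a 1.5-fold limit.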

Additional observations from a re-analysis of the deposited data

Results flagged for a closer look

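GSTF2 drew attention because its –Pi difference was of opposite sign in the lines. It was 0.13 in Col-0, from 6.89 to 7.02 log2 CPM, and -1.19 in CRR OE, from 7.18 to 5.98 log2 CPM. The difference between these was not tested, since only group means were used and the spread between libraries is unknown. The opposite-strand gene TOC159, which covers most of GSTF2, had –Pi differences of -0.35 and -0.21, and its part in the GSTF2 values was not tested.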

How the results depend on the processing

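With 1 CPM added before the log, with only the 19002 genes (46 members) of mean 0 log2 CPM or more, and with centring on the median of all genes, every count of members past 2-fold stayed within 1.5 times of its value. For the 25 members named by rule, no difference changed its direction except that of GSTZ1 between –Pi and +Pi in CRR OE. That difference went from -0.01 to 0.005 on centring. Differences of the list genes were not recomputed in these settings, and those at low levels would also shrink with 1 CPM added. For these 25 members, adding 1 CPM brought 2 differences under 2-fold, that of the –Pi responses of GSTU4 (-0.89) and that of GSTF14 between the lines in –Pi (-0.92). The same setting lowered GSTU12 from 2.84 to 1.44 in Col-0 –Pi and from -1.92 to -1.17 for the difference of responses, the latter smaller than GSTF2 (-1.32). At 1.5-fold, 9 members were higher and 3 lower in –Pi in Col-0 (7.21% and 6.04% of all genes), and 4 were higher and 2 lower in CRR OE (5.68% and 3.06%). Between the lines 1 member was higher in +Pi (0.702%), and 1 was higher and 6 lower in –Pi (2.66% and 2.36%). For the difference of responses 1 was higher and 8 were lower (3.72% and 3.0%).

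No paired analysis was possible because the table gives 1 mean per group and no value per library, although the labels share replicate numbers. Leaving out each library in turn and the replicate block were not run, having no values to use. Depth was not analysed here, and it limits members near 1 CPM such as GSTU12 most.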
